A study of Homo sapiens with 6 samples.

Results

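The matrix metalloproteinases MMP1, MMP3, MMP7, MMP8, MMP10, MMP12 and MMP13 are secreted zinc proteases whose genes lie side by side on human chromosome 11, at band 11q22. These 7 genes were followed on 6 Affymetrix arrays of HSC-3 cells, an established human line of tongue squamous cell carcinoma. Every probe set annotated to one of the 7 genes alone was taken, which gave 8 probe sets of 54613 that are not controls, 2 for MMP8 and 1 for each other gene. The genes were chosen by their position together with the earlier finding, on these same arrays, that some of them were lower on the arrays labelled TAT-2. Their differences between the groups are therefore given as a description, with no test.

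The group TAT-2 held 3 arrays of HSC-3 cells labelled as overexpressing trypsin-2, a serine protease of the digestive trypsin family, and the group vector held 3 arrays of HSC-3 cells with a control vector, labelled as having no trypsin-2 expression. All cells were grown for 48 h in the same medium with fetal calf serum and hydrocortisone, and all were detached with trypsin, washed and frozen before RNA was extracted. The sources used here give neither the promoter of the introduced gene nor whether each line was a single clone or a pool. Nothing in the labels says that same-group arrays came from separate cultures, so any p-value here covers array to array spread that may be technical, and 3 arrays in each group set the precision.

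Matrix metalloproteinases are made as inactive proenzymes and become active when the propeptide is cut away, which plasmin, trypsin and other metalloproteinases can do. The collagenases MMP1, MMP8 and MMP13 cut fibrillar collagen, the stromelysins MMP3 and MMP10 cut proteoglycans, fibronectin and laminin and help to activate procollagenases, matrilysin MMP7 lacks the hemopexin domain of the others, and MMP12 is the elastase first known from macrophages. In squamous carcinoma several of these enzymes are made by the tumour cells or by the stroma at the invading edge. Their transcription is known to respond to AP-1, the dimers of Fos and Jun family proteins, and to growth factors and inflammatory cytokines.

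The upstream sequences below are shown to set side by side where an AP-1-like motif and a TATA box lie in members that have both and in MMP8, which does not have both near the start site. The RefSeq promoter table of GRCh38.p14 held 3 of the 7 genes, MMP7, MMP8 and MMP10, and the 120 bases before each start site were read from it. All 3 lie on the minus strand of chromosome 11, at chr11:102530748-102530867 for MMP7, chr11:102724955-102725074 for MMP8 and chr11:102780629-102780748 for MMP10. Sequences run 5′ to 3′ and end at the base before the start site, with matches to TGANTCA (N is any base) or TATAAA in capitals.
MMP10: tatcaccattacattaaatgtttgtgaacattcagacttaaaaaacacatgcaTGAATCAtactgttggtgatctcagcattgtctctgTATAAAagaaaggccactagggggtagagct
MMP7: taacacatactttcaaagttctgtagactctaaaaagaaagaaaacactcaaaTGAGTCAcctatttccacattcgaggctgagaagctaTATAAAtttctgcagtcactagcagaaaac
MMP8: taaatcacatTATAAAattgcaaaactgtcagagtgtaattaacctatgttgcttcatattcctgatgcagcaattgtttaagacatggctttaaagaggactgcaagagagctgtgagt

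Both motifs were searched on both strands, and their matches did not overlap. In MMP10 and MMP7 the TGANTCA match began 67 bases before the start site in each, and TATAAA began 31 bases before the start site of MMP10 and 30 before that of MMP7. In MMP8 the only match was TATAAA, 110 bases before the start site. Of 35116 promoters in the table, 3.34% held TGANTCA in a window of the same length and 5.63% held TATAAA. These matches describe the letters of the windows and were not tied to any measurement on the arrays.

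The values are MAS5 signals on a linear scale, which the authors had scaled to a common mean, and differences between groups were taken on log2(signal + 16). On that scale a fold change understates the change of a dim probe set. Across the whole table a probe set was tested if its mean log2 level was at or above that of the median non-control probe set, 4.96, which corresponds to a signal of 15.2. Of the 7 genes, 4 had a probe set past this filter (MMP1, MMP3, MMP10 and MMP13), and the probe sets of the other 3 did not pass. Just inside was MMP13, with a mean log2 level of 5.07, and just outside were MMP7 (4.956) and MMP12 (4.91). MMP8 lay further below, at 4.34 and 4.18 on its 2 probe sets. Signals of different probe sets are not compared with each other, since each probe set has its own response.

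Before the members, the introduced gene was read as a check of the labels. On the probe set of PRSS2 with the highest mean, trypsinogen-2 signals were 20.4, 13.8 and 14.6 on TAT-2 replicates 1, 2 and 3 and 19.6, 80.8 and 83.2 on the vector arrays, a difference of -1.12 in log2, in the direction against the labels. By replicate number it was 0.035, -1.70 and -1.70. The groups overlapped, and this probe set was not called in either limma fit described below (limma adjusted p = 0.467, and 0.0506 with the replicate block). The other PRSS2 probe set past the filter differed by -0.59, with every TAT-2 array below every vector array. It was not called (limma adjusted p = 0.560, and 0.127 with the replicate block). A probe set shared by PRSS2 and PRSS1 differed by 0.13 near the floor of the arrays, with every TAT-2 array above every vector array. The 2 probe sets of PRSS3 differed by -0.06 and 0.00, with overlapping groups. The sources used here do not say if any of these probe sets detects the introduced sequence, so every direction below is that of arrays named by their label. Of 12 squamous markers 9 had a probe set with a single symbol, and all 9 passed the filter. On single arrays S100A2 lay between 8927 and 10962 and KRT14 between 4554 and 7662. DSG3 lay between 152 and 197, DSC3 between 142 and 215, and KRT16 between 11.4 and 50.5. Of 10 fibroblast markers 4 passed the filter (COL1A1, DCN, THY1 and FAP) and of 8 measured leukocyte markers 3 did (CD14, ITGAM and CSF1R). Summed fibroblast marker signals ran from 253 to 263 on TAT-2 arrays and from 216 to 238 on vector arrays, and summed leukocyte signals from 76.3 to 154 and from 80.0 to 111. COL1A2, COL3A1 and PTPRC stayed at mean signals of 10.1 or lower in both groups, and the part of other cells in the members' values was not tested. Both replicate 1 arrays differed from the other 4 in a sign of RNA quality, the 3′ to 5′ balance of ACTB signals (as a log2 ratio), which was 0.21 and 0.25 on them against 0.46 to 0.59 on the rest.

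MMP1, the interstitial collagenase, was the member with the largest difference on log2(signal + 16), although with a pseudocount of 1 that of MMP13 was larger. As a ratio of linear means MMP1 differed 2.61-fold, MMP13 4.79-fold and the brighter MMP8 probe set, near the floor, 2.74-fold. MMP1 signals were 1468, 2264 and 2108 on TAT-2 replicates 1, 2 and 3 and 4933, 5470.1 and 4855 on vector replicates 1, 2 and 3. Every TAT-2 array lay below every vector array, with TAT-2 replicate 1 the lowest of all. Group means were 1947 ± 422 and 5086 ± 335 (SD, n = 3 each), which made a log2 difference of -1.40 ± 0.15 (SE), or 2.64-fold lower on TAT-2. Between same-numbered arrays the difference was -1.74, -1.27 and -1.20 in replicates 1, 2 and 3, so that the largest of them came from the pair of replicate 1.

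MMP13, the collagenase known from cartilage and from invading carcinoma cells, was dim on TAT-2 arrays. It gave 5.84, 8.74 and 7.12 on TAT-2 replicates 1, 2 and 3 and 17.4, 38.7 and 47.8 on the vector arrays. The groups did not overlap, and all 3 TAT-2 signals lay below the signal of 15.2 at which the filter stood, while all 3 vector signals lay above it. Group means were 7.23 ± 1.45 and 34.6 ± 15.6 (SD, n = 3 each), a ratio of 4.79 on the linear scale. On log2(signal + 16) the difference was -1.07 ± 0.25 (SE), 2.10-fold, and its size follows the pseudocount, with -2.01 for a pseudocount of 1 and -0.46 for a pseudocount of 64. By replicate number it was -0.61, -1.14 and -1.47, here with the pair of replicate 1 the smallest.

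MMP8, the collagenase of neutrophils, stayed near the floor of the arrays on both of its probe sets. The brighter probe set gave 4.35, 2.70 and 0.630 on TAT-2 arrays and 4.69, 14.9 and 1.39 on vector arrays. Its log2 difference of -0.27 came mainly from vector replicate 2, and without that array it was -0.04. The dimmer one gave signals between 0.321 and 4.62 over all arrays and a log2 difference of -0.01, and the groups overlapped on both probe sets.

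MMP3, stromelysin-1, had the most even difference by replicate number among the members. Its signals were 112, 99.2 and 90.3 on TAT-2 replicates 1, 2 and 3 and 233, 215 and 184 on the vector arrays. The groups did not overlap, and the lowest vector array was well above the highest TAT-2 array. Group means were 100.5 ± 10.9 and 211 ± 24.6 (SD, n = 3 each), which made a log2 difference of -0.96 ± 0.14 (SE), 1.94-fold lower, with -0.96, -1.004 and -0.91 in replicates 1, 2 and 3.

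MMP10, stromelysin-2, went a different way on 1 array. Vector arrays gave 208, 200.1 and 209 for replicates 1, 2 and 3, and TAT-2 arrays gave 73.8, 219 and 103. TAT-2 replicate 2 was the highest of all 6 arrays, so the groups overlapped, whereas TAT-2 replicates 1 and 3 lay below every vector array. Group means were 132 ± 77.1 and 206 ± 4.96 (SD, n = 3 each), which made a log2 difference of -0.71 ± 0.31 (SE). By replicate number it was -1.32, 0.12 and -0.92, and without TAT-2 replicate 2 the difference of the means was -1.10.

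MMP7, the matrilysin of glandular and some tumour epithelia, and MMP12, the macrophage elastase, were both dim. MMP7 gave 15.9, 15.8 and 14.3 on TAT-2 arrays and 18.3, 18.1 and 8.82 on vector arrays, with overlap between the groups and a log2 difference of 0.03. MMP12 gave 12.9, 10.3 and 8.30 on TAT-2 arrays and 11.7, 30.9 and 15.2 on vector arrays. Its groups overlapped too, and its log2 difference of -0.38 came to -0.15 without vector replicate 2. Vector replicate 2 was thus the brightest array for MMP12 and for the brighter MMP8 probe set, both below the filter.

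**Figure D1:**
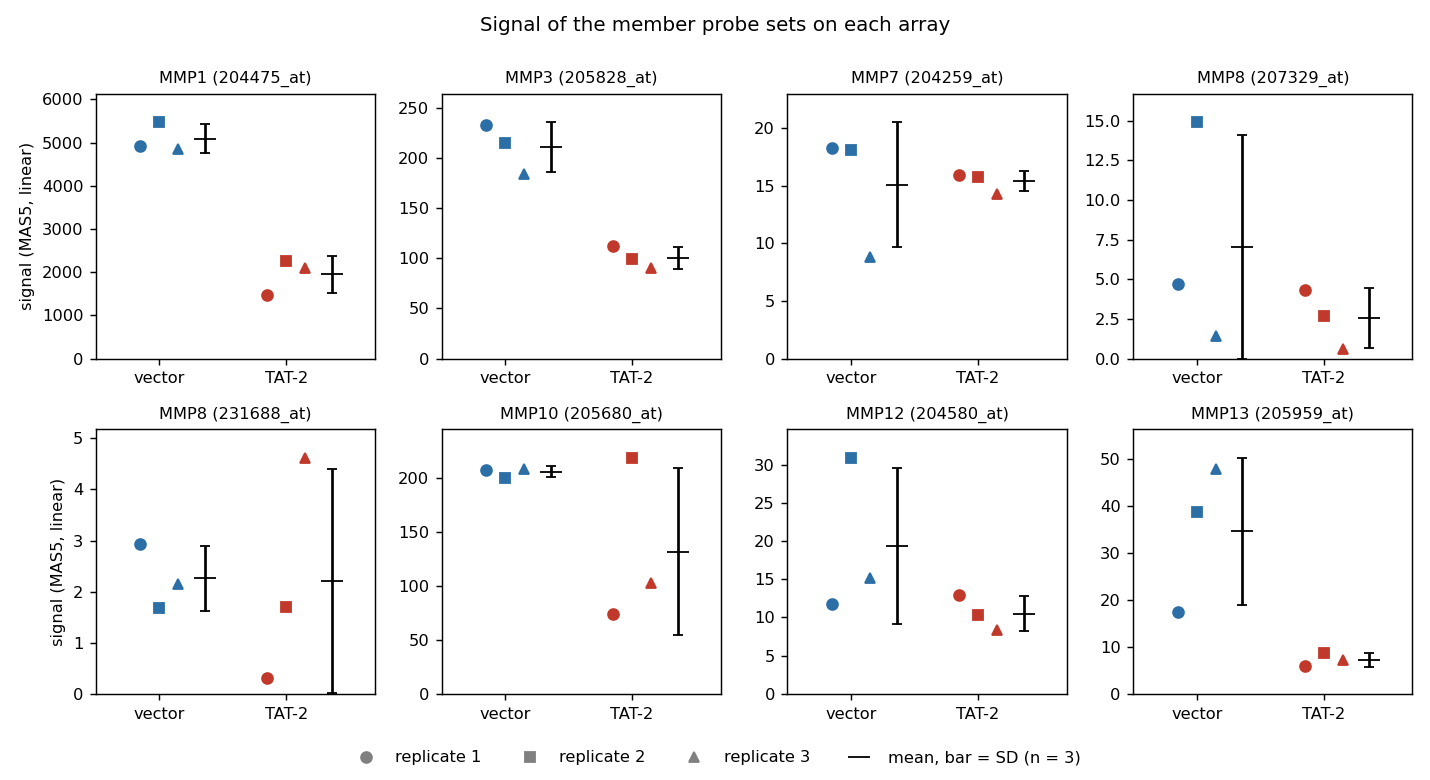
Signal (MAS5, linear scale from 0, a separate axis for each probe set) of the 8 member probe sets on each array, with symbols for replicate numbers and black marks for the group mean and SD (n = 3). TAT-2 points lie wholly below vector points for MMP1, MMP3 and MMP13, and the TAT-2 replicate 2 point of MMP10, at 219, lies above all 3 vector points.

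Over the 8 probe sets, 7 were lower on TAT-2 by mean log2 level, where 51.2% of all non-control probe sets were. In 4 of the 8 (MMP1, MMP3, MMP13 and the brighter of MMP8) the TAT-2 array was the lower one in all 3 replicate numbers, against 16.5% of all non-control probe sets. In 3 genes (MMP1, MMP3 and MMP13) every TAT-2 signal lay below every vector signal, against 6.12% of all non-control probe sets, and no member had the opposite order without overlap. Since the members were chosen with this contrast known, nothing is read from these counts.

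**Figure D2:**
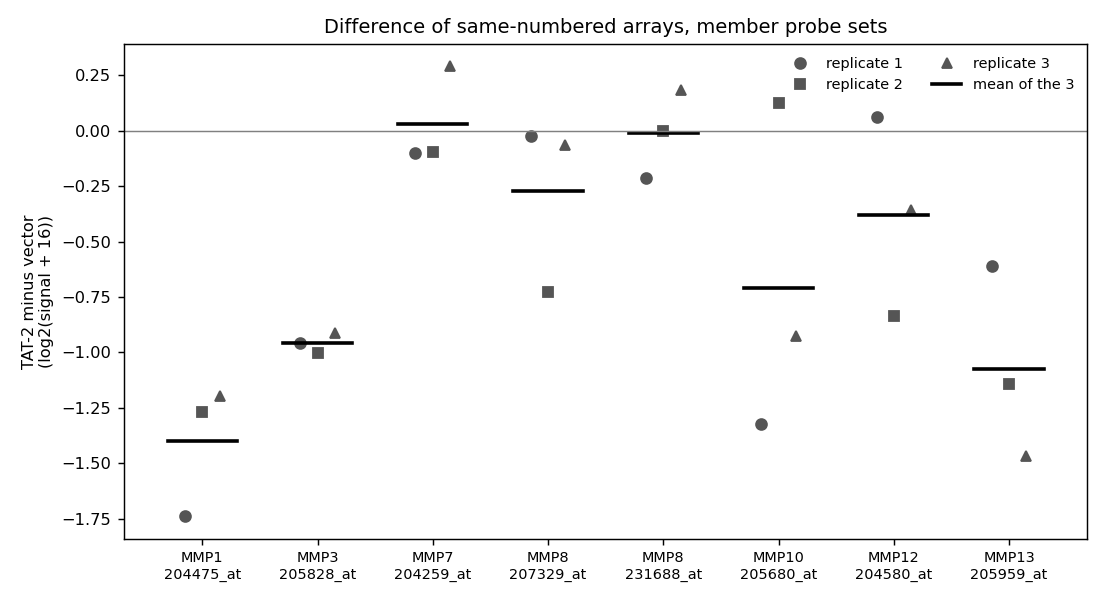
Difference of same-numbered arrays, TAT-2 minus vector, in log2(signal + 16), for each member probe set, with a line at the mean of the 3. The values of MMP3 lie between -1.004 and -0.91, those of MMP10 spread from -1.32 to 0.12, and those of MMP7 and of the dimmer MMP8 probe set lie around 0.

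The measured genes most like each member were found as those whose log2 levels, centred on their mean over the 6 arrays, had the smallest root mean square difference from those of the member. For MMP1, whose own centred levels had a root mean square of 0.728, the nearest were the pseudogene DUXAP10 (0.113), IL1R2, a decoy receptor of interleukin-1 (0.170), and SAMD5, a SAM domain protein (0.181). For MMP3 (0.494) they were IL1RL1, the receptor of interleukin-33 (0.082), C6orf141 (0.087) and MAOA, monoamine oxidase A (0.112). For MMP13 (0.609) they were KRT80, a keratin (0.132), FN1, fibronectin (0.135), and TGFB2, a transforming growth factor (0.166), and for MMP10 (0.544) they were CACNG4, a calcium channel subunit (0.170), SCEL, sciellin of the cornified envelope (0.179), and NUMA1, of the mitotic spindle (0.189). Of these 12 genes NUMA1 lies on chromosome 11 and the others do not. Between the members themselves the root mean square difference was 0.352 for MMP1 and MMP3, 0.354 for MMP1 and MMP13, 0.388 for MMP3 and MMP13, and 0.450 to 0.497 for MMP10 and the other 3. With 6 arrays in 2 groups, this likeness holds mostly the group difference and its spread, and it is a description.

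Along the chromosome the 7 genes stand in the order MMP7, MMP8, MMP10, MMP1, MMP3, MMP12 and MMP13 in the RefSeq gene table of GRCh38.p14, with MMP20 and MMP27, which are not members, between MMP7 and MMP8. The log2 differences in that order were 0.03, -0.27, -0.71, -1.40, -0.96, -0.38 and -1.07, taking the brighter probe set of MMP8. MMP20, the enamelysin of developing teeth, and MMP27 were below the filter, with differences of -0.06 and -0.15. As a ratio of linear group means, MMP7 differed 1.02-fold, MMP8 2.74- and 1.02-fold on its 2 probe sets, and MMP12 1.83-fold, all below the filter and with overlapping groups.

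Neighbours on both sides were taken as the 15 nearest genes with a tested probe set on each side. They were tested with limma over all 27307 probe sets past the filter (called at a Benjamini-Hochberg adjusted p under 0.05), once with group alone and once with the replicate number added as a block. On the side of MMP7 the 3 nearest fell with the replicate block: TMEM123, a membrane mucin-like protein, BIRC2, an inhibitor of apoptosis, and YAP1, the transcriptional coactivator of the Hippo pathway. YAP1 gave 642, 709 and 734 on TAT-2 replicates 1, 2 and 3 and 1301, 1210.2 and 1137 on vector arrays, a log2 difference of -0.79 ± 0.10 (SE; limma adjusted p = 0.0564, and 0.000321 with the block). BIRC2 gave 576, 769 and 774 against 1273, 1247 and 1258, and TMEM123 gave 762, 1242 and 1245 against 1638, 2031 and 2024. On these probe sets of the 3 genes the groups did not overlap and, as with MMP1, TAT-2 replicate 1 was the lowest array. The remaining tested YAP1 probe sets differed by -0.83 and -0.71, also without overlap (limma adjusted p = 0.0631 and 0.104, and 0.000368 and 0.000881 with the block). On the YAP1 probe set at -0.71 TAT-2 replicate 3 was the lowest array. BIRC2 differed by -0.83 ± 0.13 (SE; limma adjusted p = 0.0699, and 0.000432 with the block) and TMEM123 by -0.83 ± 0.19 (SE; limma adjusted p = 0.212, and 0.000327 with the block).

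On the side of MMP13 the nearest tested gene was DCUN1D5, a factor of cullin neddylation, whose brightest probe set fell in both fits. That probe set gave 1103, 1204 and 1143 on TAT-2 arrays and 2645, 2299 and 2195 on vector arrays, a log2 difference of -1.03 ± 0.10 (SE; limma adjusted p = 0.0248, and 5.3e-05 with the block). The other tested DCUN1D5 probe set differed by -0.20, also without overlap between the groups, and was not called (limma adjusted p = 0.870, and 0.605 with the block). By replicate number the difference was largest for replicate 1 in each of these 4 neighbours, at -1.001 for YAP1, -1.12 for BIRC2, -1.09 for TMEM123 and -1.25 for DCUN1D5, as it was for MMP1. Without the block the call of DCUN1D5 was lost with no intensity trend and when TAT-2 replicate 2 or 3 or vector replicate 2 or 3 was left out. With the block but no intensity trend, limma called 0 of all 27307 probe sets, while 4260 had an unadjusted p under 0.05, so every call with the block rests on that trend.

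Outside these 4 genes no neighbour was called lower in either fit, and the differences were of mixed sign. On the MMP7 side CFAP300, a ciliary gene, differed by 0.17 and CEP126, a centrosomal gene, by -0.32 on their brightest probe sets (limma adjusted p = 0.933 and 0.782). The other tested CEP126 probe set differed by -0.47 (limma adjusted p = 0.641, and 0.294 with the block). A CEP126 probe set below the filter differed by -0.385, and on neither of these did the groups overlap. On the MMP13 side DYNC2H1, a ciliary dynein, differed by 0.11 on its brightest probe set and by -0.52 and -0.50 on its other 2 tested probe sets (limma adjusted p = 0.958, 0.326 and 0.662), so that its probe sets disagree. On the DYNC2H1 probe set at -0.52 the groups did not overlap. The inflammatory caspases CASP4 and CASP1 differed by -0.16 and 0.34 and CARD16, a caspase-1 inhibitor, by 0.32. A CARD16 probe set below the filter, near the floor of the arrays, differed by -0.245 without overlap between the groups. The brightest CASP1 probe set rose with the block (limma adjusted p = 0.0255), while the other 4 tested CASP1 probe sets, with differences of 0.19 to 0.30, were not called (limma adjusted p = 0.0669 to 0.405 with the block). Of the 30 neighbours, limma called 1 lower and 0 higher without the block, beside 0.0411% of 12151 tested genes called lower, and 4 lower and 1 higher with it, beside 3.46% called lower and 3.50% called higher. The median difference was -0.02 over the 30 neighbours and 0.00 over all tested genes. The 5 neighbours called with the block were the 3 next to MMP7, DCUN1D5 and CASP1. BIRC3, which lies between YAP1 and BIRC2, was not analysed here.

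**Figure D3:**
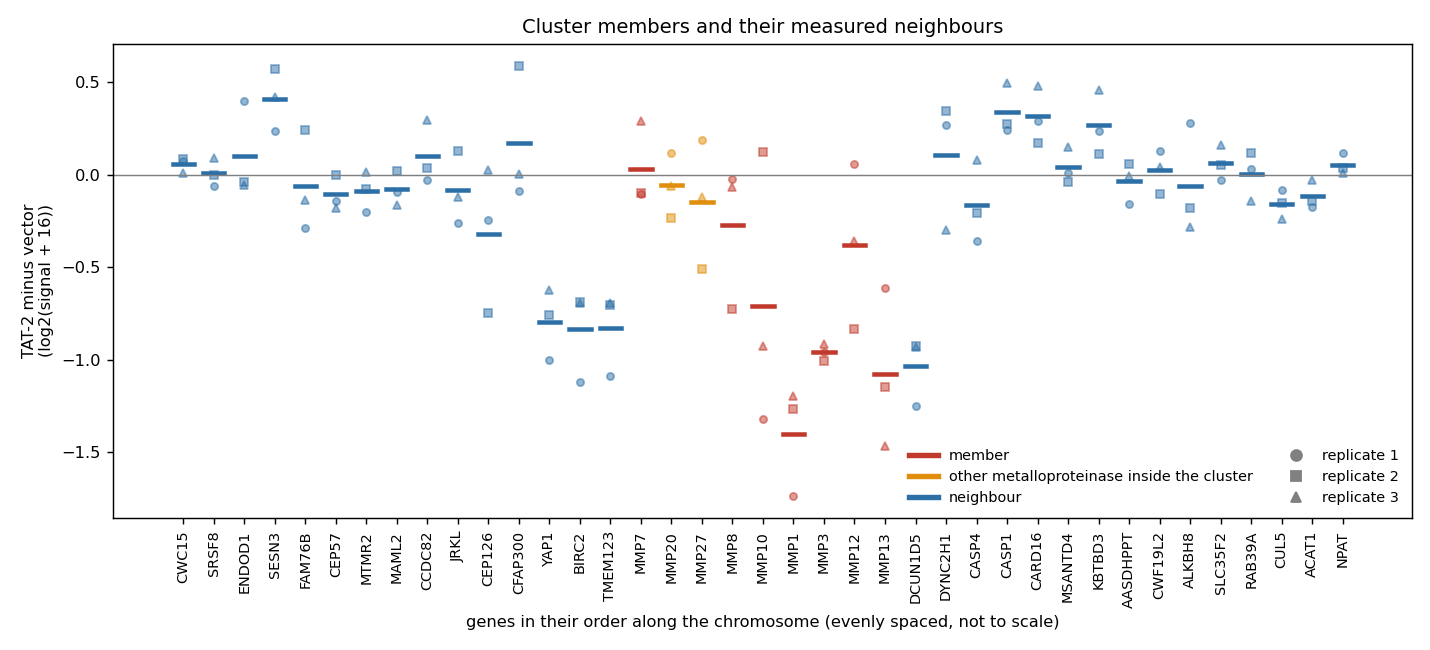
TAT-2 minus vector, in log2(signal + 16), for the members (red), MMP20 and MMP27 (orange) and 15 tested neighbours on each side (blue), in chromosome order with even spacing. Lines are means and symbols the 3 replicate numbers. Most values from YAP1 at -0.79 to DCUN1D5 at -1.03 are below 0, with values near 0 among them at MMP7, MMP20 and MMP27. These genes, MMP8 at -0.27 and MMP12 at -0.38 are below the filter, with overlapping groups. The other tested DCUN1D5 probe set, at -0.20, is not drawn.

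Matrix metalloproteinases encoded elsewhere in the genome were read for comparison. Of 16 listed, 7 passed the filter, and limma called 0 of them in either fit (1 had an unadjusted p under 0.05 in each). MMP2, the gelatinase A, gave 27.5, 29.5 and 16.8 on TAT-2 arrays and 40.3, 45.1 and 40.2 on vector arrays, a log2 difference of -0.53 ± 0.18 (SE; limma adjusted p = 0.480, and 0.108 with the block). MMP25, a membrane-anchored enzyme, differed by -0.22, and MMP9, the gelatinase B, MMP14, the membrane-type activator of pro-MMP2, and MMP11 by 0.21, 0.04 and 0.03 (the last 3 chosen after their values were seen). The other tested probe sets of MMP14 disagreed in sign for 2 of 3. The median of the 7 was -0.17, and the difference between them and the cluster was not tested.

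Inhibitors of the enzymes were not called either. Of 6 listed, 5 passed the filter, and limma called 0 in both fits (unadjusted p under 0.05 for 0 without the block and for 1 with it). TIMP2 gave a log2 difference of -0.30 ± 0.17 (SE) and TIMP3, which binds to the matrix, 0.20 ± 0.17 (SE), with limma adjusted p of 0.769 and 0.901. TIMP1, the main secreted inhibitor, chosen after its values were seen, was at 648 ± 47.2 on TAT-2 and 688 ± 54.2 on vector (SD, n = 3 each).

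Among 8 tested genes of proenzyme activation, PLAU, the urokinase that makes plasmin, rose with the block. It gave 3799, 4449 and 4210 on TAT-2 arrays and 3337, 3249 and 3014 on vector arrays, a log2 difference of 0.37 ± 0.09 (SE; limma adjusted p = 0.206, and 0.0149 with the block), with no overlap. It was the only call of the list. An unadjusted limma p under 0.05 was held by 6 of the 8 with the block and by 1 without it. Over all 12151 tested genes 2708 and 1140 held one.

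Of 24 tested transcription factors known to act on these promoters, 1 rose and 2 fell with the block, while limma called 0 without it. Unadjusted p was under 0.05 for 6 with the block and for 1 without it. LEF1, a partner of beta-catenin, fell from 64.4 ± 15 to 19.6 ± 4.23 (SD, n = 3 each), a log2 difference of -1.17 ± 0.18 (SE; limma adjusted p = 0.0881, and 0.00267 with the block), with no overlap. Of the 8 AP-1 genes on that list, FOSL1 fell and FOS rose with the block, and the other 6 (FOSB, FOSL2, JUN, JUNB, JUND and ATF3) were not called in either fit. FOSL1 gave 1979.8, 896 and 996 on TAT-2 arrays and 3103, 1542 and 1478 on vector arrays. It was lower in each replicate number by -0.64, -0.77 and -0.56 (limma adjusted p = 0.743, and 0.000353 with the block). The groups overlapped because both replicate 1 arrays were high. FOS gave 82.2, 646 and 514 against 56.5, 280.3 and 331. It was higher in each replicate number by 0.44, 1.16 and 0.61 (limma adjusted p = 0.931, and 0.00590 with the block). Its groups overlapped too, since both replicate 1 arrays were low. Among the members past the filter, MMP1, MMP3 and MMP13 had no overlap between the groups, while MMP10 had. Of all non-control probe sets 6.12% were lower on TAT-2 without overlap. The members were chosen with this contrast known, so nothing is read from their overlap. Any link between these transcription factors and the members was not tested.

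Of 15 tested inducers and their receptors, TNF rose with the block and no other was called, while limma without the block called 0. Unadjusted p was under 0.05 for 5 with the block and for 2 without it. TNF gave 244, 423 and 373 on TAT-2 arrays and 185, 182 and 191 on vector arrays, a log2 difference of 0.81 ± 0.19 (SE; limma adjusted p = 0.219, and 0.00413 with the block). Among 10 substrates past the filter, FN1, fibronectin, and CDH1, E-cadherin, fell with the block, and limma called 0 without it (unadjusted p under 0.05 for 4 with the block and for 2 without it). FN1 gave 69.3, 92.0 and 90.4 on TAT-2 arrays and 185, 213 and 272 on vector arrays, a log2 difference of -1.25 ± 0.17 (SE; limma adjusted p = 0.0596, and 0.000148 with the block). CDH1 differed by -0.43 ± 0.16 (SE; limma adjusted p = 0.527, and 0.00826 with the block). The docking proteins of the enzymes numbered 7 past the filter, and limma called 0 in both fits (unadjusted p under 0.05 for 0 without the block and for 2 with it). ITGA2, the integrin subunit that binds pro-MMP1, differed by -0.17 and the clearance receptor LRP1 by 0.31.

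In the order above, these 7 lists held 7, 5, 8, 24, 15, 10 and 7 tested genes. For the lists together limma called 0 genes without the block, where 0.0576% of all tested genes were called in either direction, and 7 with it, where 6.96% were. List medians lay between -0.17 and 0.07, against 0.00 over all tested genes.

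**Figure D4:**
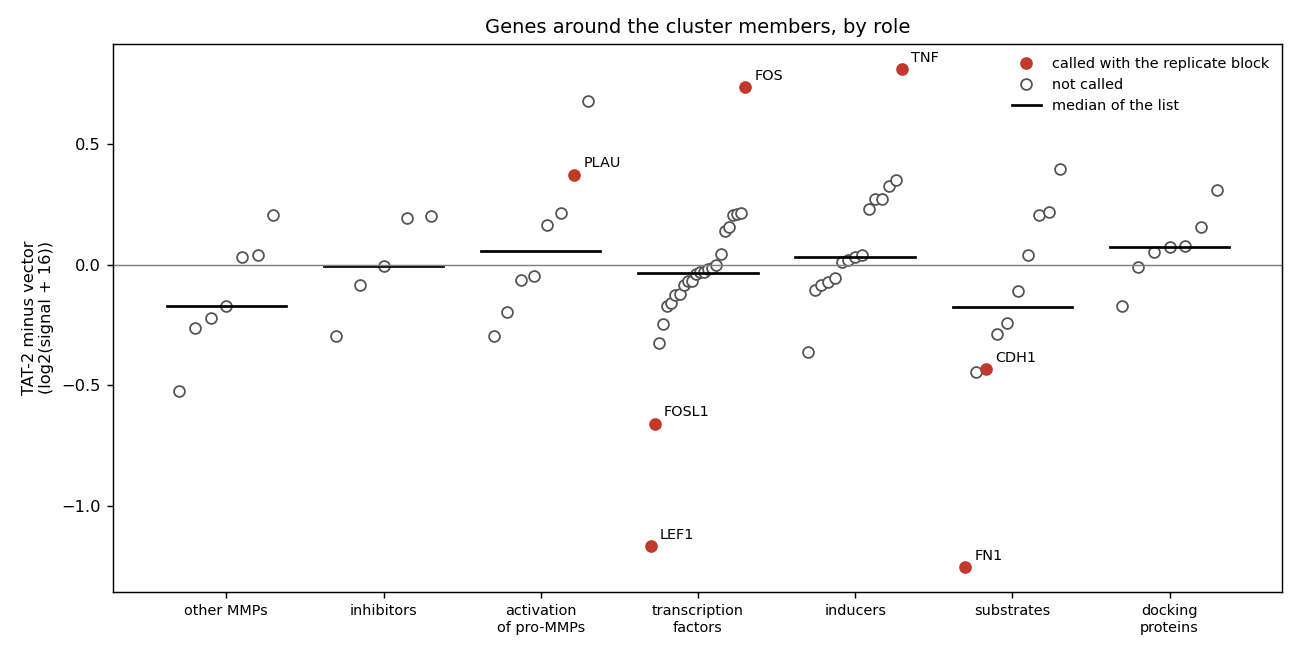
TAT-2 minus vector, in log2(signal + 16), for each tested gene of 7 lists around the cluster members, with a black line at the median of each list and filled points for genes called by limma with the replicate block. LEF1 at -1.17 and FN1 at -1.25 lie lowest, and TNF at 0.81 lies highest.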

How the data were processed

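The deposited values are intensities, 1 linear MAS5 signal per probe set and array (MAS5 per the submitters' processing notes, which name no version in the sources used here). Their mean between percentiles 2 and 98 was 99.99 on every array, and this scaling by the authors was left in place. Presence calls were not used here. Biotin-labelled cRNA came from 2 µg of total RNA, per the labels' protocols. The array has 54675 probe sets, 62 of them controls. GEO's platform annotation names a single symbol for 41097, 1801 several and 11777 none, and 41043 of those with a single symbol were matched by gene identifier to RefSeq (GRCh38.p14).

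Signals were tested as log2(signal + 16) with limma 3.58.1 in R 4.3.3 (lmFit, eBayes with an intensity trend, group as the only term), adjusted by Benjamini-Hochberg over 27307 probe sets. On simulated data the fit without the block was checked only for returning the differences put in. The rate of false calls and the fit with the block were not checked. The probe set of highest mean stood for a gene, in 12151 genes. The median as filter level, the neighbours (15 a side) and the lists are as given in the report. The members and lists were chosen with earlier results of these data known. Named were all member and trypsinogen probe sets, the 5 nearest neighbours a side, up to 5 called genes of a list or else the 2 of smallest p, and 3 most alike genes per tested member.

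Deviations from the group mean of same-numbered arrays correlated across probe sets with r = 0.64, 0.39 and 0.25 for replicates 1, 2 and 3, and on that ground the replicate number, taken from the titles, was used as a block. Arrays of numbers 2 and 3 also correlated across numbers (0.32 and 0.20), so the block may stand mostly for replicate 1. Alternatives were other pseudocounts, filters, scalings and designs, and each array left out.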

Additional observations from a re-analysis of the deposited data

How the results depend on the processing

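The direction of MMP1, MMP3, MMP10, MMP12, MMP13 and the brighter MMP8 probe set was the same under all 13 alternatives run on member differences. MMP7 and the dimmer MMP8 probe set, near 0, changed sign under some. For MMP1, MMP3 and MMP13 the groups did not overlap, so no pseudocount and no left-out array could have reversed the direction. For those genes only the scalings could have done so. Neither the replicate block nor replicate 1 as a batch factor could move a difference of group means, since each replicate number has an array in each group. The differences therefore stayed as they were by design (MMP1 at -1.40, MMP3 at -0.96, MMP13 at -1.07). With a pseudocount of 1 the log2 difference of MMP13 was -2.01, of MMP12 -0.72 and of the 2 MMP8 probe sets -0.92 and -0.24. With a pseudocount of 64 it was -0.46 for MMP13 and -0.74 for MMP3, as the pseudocount is large beside these signals. With single arrays left out, MMP1 ran from -1.52 to -1.21, MMP3 from -1.05 to -0.89, MMP10 from -1.10 to -0.41 and MMP13 from -1.35 to -0.88.

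Counts of limma calls depended on the design. Of all probe sets 8 were called, against 13 with quantile normalization, 24 with array medians centred, 5 without the intensity trend, 1424 with the replicate block, 0 with the block and no trend (4260 at an unadjusted p under 0.05), 1232 with replicate 1 as a batch factor, 299 without replicate 1 of both groups, and 0 to 29 with single arrays left out. It was 0 without TAT-2 replicate 2 or 3 or vector replicate 2 or 3, with 1658, 1725, 1508 and 1472 at an unadjusted p under 0.05. In the 7 lists together 0 genes were called, against 1 with array medians centred or with each gene's probe sets averaged, 7 with the block, 8 with the batch factor, 7 without replicate 1 of both groups and 0 to 1 with single arrays left out. Of the 30 neighbours 1 was called, against 2 with quantile normalization, 5 with the block or the batch factor, 4 without replicate 1 of both groups, 0 without the trend in either design and 0 to 2 with single arrays left out. The cause of these shifts was not tested.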
